A study of Mus musculus with 661 samples.

Results

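The fibroblast stem-cell marker genes are 10 genes, of which some mark the least differentiated fibroblasts of many mouse tissues. They were taken as a named list, and all 10 were found by symbol among the 45771 nuclear genes counted. In skin, fat, muscle and other organs a universal fibroblast sits in the adventitia around vessels and in fascia, makes little tissue-specific matrix, and is known for Pi16, Dpp4 and Cd34. In bone, related cells lie in the periosteum and along the endosteum, where they can form bone and cartilage, whereas the perivascular stromal cells of the central marrow carry leptin receptor and make the factors that hold blood stem cells.

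By role, the list holds 3 membrane proteins, 2 secreted proteins, 3 matrix proteins, a regulator of actin and a transcription factor. Dpp4 encodes a surface dipeptidase (chr2:62330073-62412231, minus strand), Cd34 a sialomucin of vessel lining, blood progenitors and fibroblasts (chr1:194938819-194961279, plus strand), and Thy1 a small lipid-anchored glycoprotein (chr9:44043384-44048579, plus strand). Pi16 encodes a secreted peptidase inhibitor (chr17:29317680-29330593, plus strand) and Clec3b the plasminogen-binding protein tetranectin (chr9:123150946-123157432, plus strand). Mfap5 encodes a glycoprotein of microfibrils (chr6:122505845-122529290, plus strand), Tnxb the large matrix protein tenascin-X (chr17:34670535-34719815, plus strand), and Postn periostin, which is typical of periosteum and tendon (chr3:54361109-54391037, plus strand). Gsn encodes gelsolin, which cuts actin filaments and is also secreted (chr2:35256380-35307892, plus strand). Prrx1 encodes a homeobox factor of limb and head mesenchyme (chr1:163245119-163313710, minus strand). These are GRCm38 gene positions. Counting ignored strand, and a gene on the opposite strand overlapped 222 bases (3.49%) of the Pi16 exons, 232 bases (3.67%) of those of Dpp4 and 148 bases (2.03%) of those of Cd34.

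Single stromal cells from bone and bone marrow of young adult and aged wild-type C57BL/6 mice of both sexes were sorted into plates and sequenced by a full-length cDNA method without molecular identifiers. The endosteal gates were MSC-S (Sca-1+ and CD51+), mOPr (Sca-1-, CD51+, PDGFRa+, LepR-) and OPr (as mOPr but PDGFRa-), the marrow gate was MSC-L (Sca-1-, CD51+, PDGFRa+, LepR+), and all of them were CD45- and CD31-. AEC were endothelial cells of the endosteum, by the paper chiefly arterial, and SEC endothelial cells of the marrow, by the paper mostly but not all sinusoidal. There were 59 young and 59 old MSC-S, 26 and 26 mOPr, 44 and 29 OPr, 53 and 58 MSC-L, 84 and 82 AEC, and 70 and 71 SEC. None of the 10 genes encodes an antigen used for sorting.

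By the paper, the cells of each age came from several mice. Each deposited sample was 1 cell and no label named its mouse. Each population of each age was therefore treated as 1 pooled sample, without any test. A level is the counts of a gene summed over the cells of a group and scaled to the nuclear total as CPM, with an exact 95% Poisson interval. A cell is said to carry a gene at 10 CPM or more, and shares of cells have exact Clopper-Pearson 95% intervals. For a share of 0 the limit given is 3 cells of the total, a floor that lies below the upper end of that interval. All intervals cover counting error only, since reads copied by PCR are not independent molecules, and they say nothing of the spread between mice. Depth per cell was close between ages in MSC-S, with a median of 602470 nuclear counts in young cells (104972 to 885957) and 693396 in old cells (167867 to 1115467). It was lower in MSC-L, with medians of 463538 in young and 352562 in old cells.

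The sorting antigens matched the gates of MSC-S. Ly6a, which encodes Sca-1, stood at 912 CPM in young and 1304 CPM in old MSC-S, where 56 of 59 and 58 of 59 cells carried it, against 1.27 and 3.95 CPM in MSC-L. Lepr stood at 3160.4 and 3239 CPM in young and old MSC-L, against 111 and 234 CPM in MSC-S. The transcripts followed the gates less closely in the progenitors. Lepr was carried by 10 of 26 young (144 CPM) and 17 of 26 old mOPr (1047 CPM) and by 18 of 44 young (362 CPM) and 17 of 29 old OPr (1333 CPM), all gated as LepR-. Pdgfra was carried by 12 of 44 young and 10 of 29 old OPr, gated as PDGFRa-. In MSC-S the 15 hematopoietic markers summed to 1.74 CPM in young cells, with Hbb-bs the highest at 0.521 CPM, and to 1.1996 CPM in old cells, and Ptprc was at 0 in old cells. The 7 T cell markers summed to 0.0579 and 0.842 CPM, with Cd3d, Cd3e and Cd3g at 0 at both ages. The 10 endothelial markers summed to 67.5 CPM in young MSC-S, of which Tek gave 43.1 CPM, and to 12.8 CPM in old MSC-S. Pecam1 was at 1.19 and 0.459 CPM.

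Other mesenchymal programs were present in MSC-S, some of them at high levels. Summed over each list, tendon markers stood at 5761 CPM in young and 2664 CPM in old MSC-S, with Fmod the highest, and chondrocyte markers at 5487 and 2813 CPM, with Comp the highest. Osteoblast markers stood at 3142 and 1356 CPM (Col1a1 highest), the 8 markers of MSC-L at 684 and 1338 CPM (Cxcl12 highest), pericyte and smooth muscle markers at 176 and 399 CPM (Rgs5 highest), and Schwann cell markers at 80.2 and 70.4 CPM (S100b highest).

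The libraries of MSC-S fell into 3 runs of consecutive library numbers at each age, and run 2 stood apart. All 10 genes were lower in run 2 than in both other runs at both ages, beside 23.7% of 8025 genes compared, and 9.21% were higher by the same rule. By at least 2-fold, 9 of the 10 were lower there, beside 361 of the 8025 genes (4.498%), and 98 (1.22%) were higher. The exception was Postn, at 111 CPM in old run 2 against 157 CPM in old run 1. Run 2 was not shallow: its 20 young and 20 old cells had medians of 7416 and 7267 genes, the highest of the runs. The other runs had median mitochondrial shares of 1.02% to 1.32%, and run 2 had higher ones, at 1.82% and 1.48%. Ly6a was lower there, at 687 and 538 CPM against 1133 and 906 CPM in the young runs 1 and 3 and 2061 and 1528 CPM in the old ones, and the summed pericyte and smooth muscle markers were higher, at 359 and 798 CPM against 95.9, 65.8, 75.8 and 235 CPM. Of its cells, 10 of 20 young and 17 of 20 old ones were in cluster M16 of the study's clustering. Levels, carrying cells and counts of genes in MSC-S are therefore also given without run 2 in many places, a choice made after seeing the data, and the part of run 2 in them was not tested.

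The first question was where along the stroma these genes are active. At both ages 8 of the 10 genes (Dpp4, Cd34, Thy1, Pi16, Clec3b, Mfap5, Tnxb and Gsn) had their highest mesenchymal level in MSC-S. Postn was higher in mOPr than in MSC-S at both ages, and Prrx1 lay within 2-fold in MSC-S, mOPr and MSC-L. Per kilobase of exon, which is the scale for comparing genes, young MSC-S held Gsn at 7084 CPM per kb, far above Clec3b (229), Mfap5 (147), Tnxb (119.7), Cd34 (85.6) and Postn (51.6). Prrx1 (18.3), Pi16 (17.3), Dpp4 (17.3) and Thy1 (7.37) were the lowest. The cDNA was primed at the poly(A) tail, so values per length are a rough scale.

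Tnxb and Gsn were general features of MSC-S, while Pi16, Dpp4 and Thy1 were carried by a minority. Gsn was carried by all 59 cells at each age (93.9% to 100%), Tnxb by 54 of 59 cells at each age (91.5%, 81.3% to 97.2%), and Prrx1 by 47 young (79.7%, 67.2% to 89.0%) and 52 old cells (88.1%, 77.1% to 95.1%). Mfap5 was carried by 33 of 59 cells at each age, Cd34 by 29 young and 34 old cells, and Clec3b by 25 and 30. Pi16 was carried by 13 of 59 cells at each age (22.03%, 12.3% to 34.7%), Dpp4 by 11 young (18.6%, 9.69% to 30.9%) and 20 old cells (33.9%, 22.1% to 47.4%), and Thy1 by 13 and 18. Postn was carried by 10 young and 5 old cells. Without run 2, over 39 cells at each age, Pi16 was carried by 10 young and 12 old cells, Thy1 by 11 and 16, and Dpp4 by 9 young and 20 old cells (51.3%, 34.8% to 67.6%), no longer a minority in the old. Cd34 was carried there by 25 and 33 cells, Clec3b by 21 and 28, Mfap5 by 27 and 31, Postn by 8 and 4, Prrx1 by 37 and 37, Tnxb by 36 and 36, and Gsn by all. When every cell of the full groups was thinned to 100000 counts, cells with any count of Pi16 numbered 15 young and 12 old, and those with any count of Dpp4 12 and 21.

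**Figure D1:**
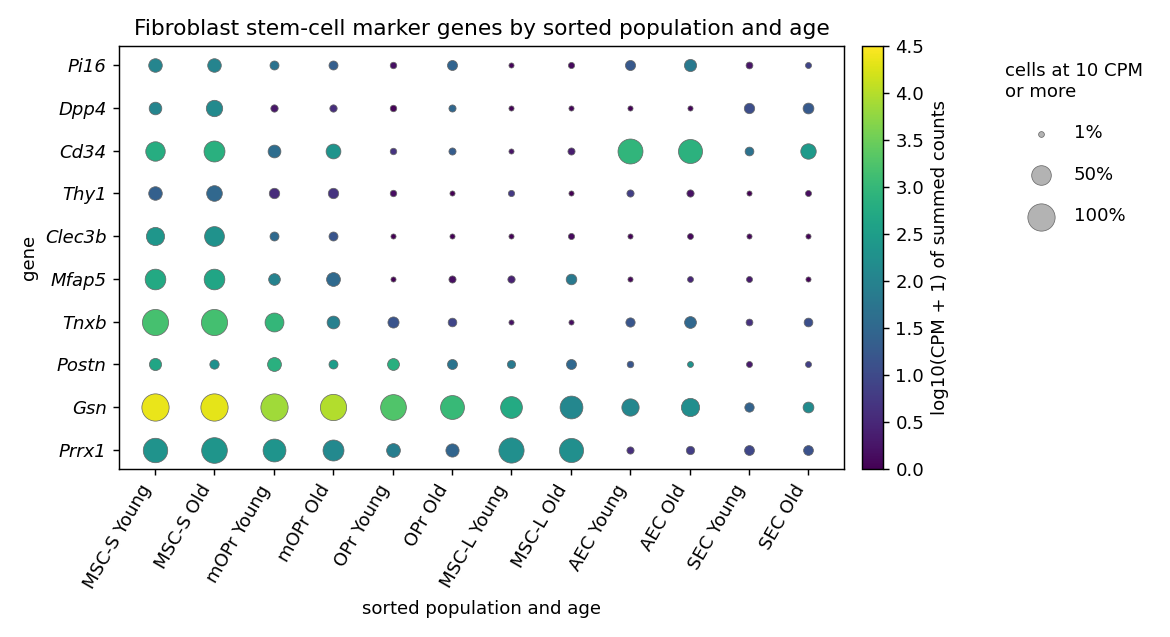
Levels of the 10 genes (vertical axis) in the 6 sorted populations at each age (horizontal axis): color is log10 of CPM + 1 of summed counts, and circle area is the percent of cells at 10 CPM or more. Gsn reached 22364 CPM in young MSC-S, Cd34 was also high in AEC (877 CPM in young cells), and Prrx1 was at 164 CPM in young MSC-L, where Pi16 was at 0.132 CPM.

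Among the membrane proteins, Dpp4 was close to absent from MSC-L. Its level was 109 CPM (106 to 113) in young and 138 CPM (135 to 142) in old MSC-S, with cells from 0 to 1564 CPM in the young and 0 to 997 CPM in the old and medians of 0. In MSC-L it had 2 counts in young and 3 counts in old cells, and 0 of 53 and 0 of 58 cells carried it, which allows up to 5.66% and 5.17%. The level in MSC-S was 1245-fold that of MSC-L in young cells (344 to 10282) and 899.7-fold in old cells (308 to 4364). In mOPr Dpp4 was at 0.891 and 2.80 CPM, and in young OPr it had 3 counts. All 643 counts of old OPr came from 1 cell, which is described with the old cells.

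Cd34 was both higher and more widely shared. It stood at 624 CPM (616 to 632) in young and 732 CPM (723 to 740.2) in old MSC-S, with cells from 0 to 5652 CPM (median 7.91) and from 0 to 5488 CPM (median 269.9). Next came mOPr at 38.05 and 215 CPM, then OPr at 3.75 and 19.1 CPM, each of which had 1 carrying cell, and MSC-L at 0.745 and 1.33 CPM. The ratio of MSC-S to MSC-L was 837-fold in young (523 to 1437) and 549-fold in old cells (374 to 840.1). Thy1 was the lowest of the surface genes, at 22.1 CPM (20.5 to 23.7) in young and 31.5 CPM (29.7 to 33.3) in old MSC-S. In mOPr it was at 2.61 and 3.52 CPM, and in MSC-L a single young cell held all 108 counts while 0 of 58 old cells carried it. In old cells its level in MSC-S was at least 205-fold that in MSC-L and at least 224-fold that in OPr, both at 0 counts, with a floor of 3 counts over the group.

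The 2 secreted proteins, Pi16 and Clec3b, were close to absent from MSC-L. Pi16 stood at 110.1 CPM (107 to 114) in young and 107 CPM (104 to 110.3) in old MSC-S, with cells from 0 to 1644 CPM and from 0 to 2987 CPM and medians of 0. The single highest cell gave 31.5% of the young counts and 38.3% of the old ones. MSC-L had 3 Pi16 counts in young and 6 in old cells, so the ratio of MSC-S to MSC-L was 837-fold (286 to 4062) and 348-fold (159.6 to 948). In mOPr the levels of 48.9 and 21.5 CPM rested on 1 cell each, with 91.2% and 81.7% of the counts, and were 4.48 and 4.04 CPM without it. Clec3b stood at 227 CPM (222 to 232) in young and 187 CPM (183 to 191) in old MSC-S. Young MSC-L had 2 counts of it, a ratio of 2585-fold (715 to 21350.5), and young OPr had 0, so that MSC-S was at least 2217-fold higher. Old MSC-L had 6 counts of Clec3b, a ratio of 608-fold (279 to 1658).

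The matrix genes did not share a single pattern. Mfap5 followed the surface genes, with 527 CPM (519 to 534) in young and 438 CPM (432 to 445) in old MSC-S, 98.0 and 34.04 CPM in mOPr (40.3 and 23.5 CPM without the highest cell of each age), 0 and 10 counts in OPr, and 1.58 CPM in young MSC-L. Old MSC-L was an exception at 64.6 CPM. Tnxb stood at 1461 CPM (1449 to 1474) in young and 1435 CPM (1423 to 1447) in old MSC-S, with cell medians of 616 and 655 CPM and highest cells of 9845 and 6569 CPM. It was also high in young mOPr at 957 CPM (941 to 973), where 12 of 26 cells carried it, and stood at 13.5 CPM in young OPr and 0.658 CPM in young MSC-L. The ratio of MSC-S to MSC-L for Tnxb was 2222-fold in young (1347 to 3970.1) and 3109-fold in old cells (1638 to 6799).

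Postn ran differently, with few cells that each made much of it. Young mOPr (713 CPM, 699 to 726) and young OPr (698 CPM, 688 to 707) overlapped within counting error and lay above young MSC-S (449 CPM, 442 to 456) and young MSC-L (65.5 CPM, 62.2 to 68.9). The highest cell gave 51.2% of the counts in young MSC-S, where cells ran from 0 to 13677 CPM with a median of 0, 53.6% in young mOPr and 47.7% in young OPr. Without these cells the levels were 223, 346 and 379 CPM, so MSC-S was again the lowest of the 3 while mOPr and OPr were in the other order. In old cells Postn was at 297 CPM in mOPr, carried by 2 of 26 cells, and 175 CPM in MSC-S, and at 108 and 81.5 CPM without the highest cell of each.

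Gsn and Prrx1 were the broad genes of the list. Gsn stood at 22364 and 20582 CPM in young and old MSC-S (cells from 55.4 to 81149 and from 149 to 63568 CPM, medians 10938 and 11636). It was at 7316 and 9629 CPM in mOPr, 1824 and 1078 CPM in OPr, and 536 and 119.5 CPM in MSC-L. Prrx1 stood at 203 CPM (198 to 208) in young MSC-S, 209.5 CPM (202 to 217) in young mOPr and 164 CPM (158 to 169) in young MSC-L. The first pair overlapped within counting error. In young OPr it was lower, at 78.3 CPM, with 10 of 44 cells carrying it. Prrx1 was thus the only one of the 10 genes with a ratio of MSC-S to MSC-L under 2-fold at both ages, 1.24-fold in young and 1.37-fold in old cells.

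Genes were compared when both groups together had 100 counts or more, spread over 5 or more cells, and a pseudocount of 1 CPM was added before taking ratios. By this measure, 9 of 10 genes were past 2-fold higher in MSC-S than in MSC-L in young cells, where 16.8% of all genes tested were, and 9 of 10 in old cells, beside 16.2%. Against OPr the count was 9 of 10 in young cells, beside 17% of all genes, with Postn the exception, and 10 of 10 in old cells, beside 18.4%. Against mOPr it was 7 of 10 in young cells, beside 17.2%, without Postn, Prrx1 and Tnxb, and 8 of 10 in old cells, beside 20.6%, without Postn and Prrx1. All 10 genes passed the filter in each of these comparisons. A gene with fewer than 100 counts in the other population, as Pi16, Dpp4, Cd34, Clec3b and Tnxb in MSC-L, passed only through MSC-S and had to differ, and the members were picked with earlier results of these data known. The counts are a description for that reason. In the study's clustering, clusters M1 and M2 held 51 of 53 young and 56 of 58 old MSC-L, but also 14 of 26 old mOPr and 10 of 29 old OPr, against 2 of 26 and 3 of 44 young ones. The comparisons with old mOPr and old OPr are therefore in part with cells of the clusters of MSC-L. Without the mOPr and OPr cells of M1 and M2 the counts in young cells were again 9 of 10 against OPr, beside 19.4% of all genes, and 7 of 10 against mOPr, beside 18.6%. In old cells they were 10 of 10 against OPr, beside 32.6% of all genes, and 6 of 10 against mOPr, without Cd34 and Gsn as well, beside 35.6%. Without run 2 the counts were the same except against old mOPr, where 9 of 10 genes were past 2-fold higher, beside 20.8% of all genes.

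The second question was whether the genes sat in the same MSC-S cells. Over both ages, 14 of 118 MSC-S (11.9%, 6.64% to 19.1%) carried Pi16 and Dpp4 together, 12 (10.2%) carried Pi16 without Dpp4, 17 (14.4%) Dpp4 without Pi16, and 75 (63.6%) carried neither. The cells with both numbered 6 of 59 young (10.2%, 3.82% to 20.8%) and 8 of 59 old cells (13.6%, 6.04% to 25.0%). Without run 2 they were 5 of 39 young (12.8%) and 8 of 39 old cells (20.5%). Few cells lay near the limit: 4 cells had Pi16 and 2 had Dpp4 between 5 and 20 CPM.

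Most cells with Pi16 or Dpp4 also carried Cd34, Clec3b, Mfap5, Tnxb, Prrx1 and Gsn, but Thy1 and Postn were less frequent in them. Thy1 was carried by 12 of the 26 cells with Pi16, and Postn by 7 of these and 8 of the 31 with Dpp4. All 14 cells with both genes carried Cd34, Clec3b, Mfap5, Tnxb, Prrx1 and Gsn, and 9 of them Thy1. Of the 31 cells with Dpp4, 30 carried Cd34, 31 Mfap5, 29 Clec3b and 19 Thy1, at medians of 1356 CPM for Cd34 and 796 CPM for Mfap5. Of the 75 cells with neither, 22 carried Cd34, 24 Mfap5 and 15 Clec3b, but 66 carried Tnxb and 58 Prrx1. Median counts were 646508 in cells with both genes, 564723 with Pi16 alone, 723964 with Dpp4 alone and 656380 with neither. Library run differed between these groups: run 2 held 35 of the 75 cells with neither gene, but 1 of 14 with both, 3 of 12 with Pi16 alone and 1 of 17 with Dpp4 alone. Few cells of run 2 carried Cd34 (4 of 20 young and 1 of 20 old) or Mfap5 (6 of 20 and 2 of 20). Most of the 22 and 24 cells named above were therefore of runs 1 and 3, and their shares depend on run 2. The part of run 2 in the levels and shares of the other genes was not tested.

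Cells with Pi16 alone and cells with Dpp4 alone carried most of the other genes about equally often. Of the 12 cells with Pi16 alone, 11 carried each of Cd34, Clec3b, Mfap5, Prrx1 and Tnxb, and of the 17 with Dpp4 alone 16, 15, 17, 16 and 17 did. Thy1 was carried by 1 of 7 young and 2 of 5 old cells with Pi16 alone, and by 4 of 5 young and 6 of 12 old cells with Dpp4 alone. The Tnxb median was 898 CPM in young and 655 CPM in old cells with Pi16 alone, against 3103 and 2329 CPM with Dpp4 alone. The Gsn median was 45999 and 44234 CPM with Pi16 alone, against 11985 and 27962 CPM with Dpp4 alone. These are small groups, and the differences were not tested. Cells with neither had a Gsn median of 6294 CPM. Run 2, however, held 35 of these 75 cells. Gsn was low in that run, at 10106.5 CPM in young and 7986.5 CPM in old cells. No median without run 2 was taken, so 6294 CPM is not to be set against the other groups.

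Taken cell by cell, the 4 genes Cd34, Clec3b, Mfap5 and Tnxb were carried together by 20 of 59 young and 26 of 59 old MSC-S, by 1 young and 2 old mOPr, and by 0 cells of OPr, MSC-L, AEC and SEC. Of the 10 genes, the median MSC-S carried 4 in young and 5 in old cells, with highest cells at 10 and 9. At least 5 genes were carried by 28 of 59 young (47.5%, 34.3% to 60.9%) and 33 of 59 old MSC-S (55.9%, 42.4% to 68.8%), by 3 and 4 of 26 mOPr, and by 0 cells of OPr and MSC-L at either age. By run, the median number of genes was 7, 3 and 4 in the young runs 1, 2 and 3 and 7, 3 and 8 in the old ones.

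**Figure D2:**
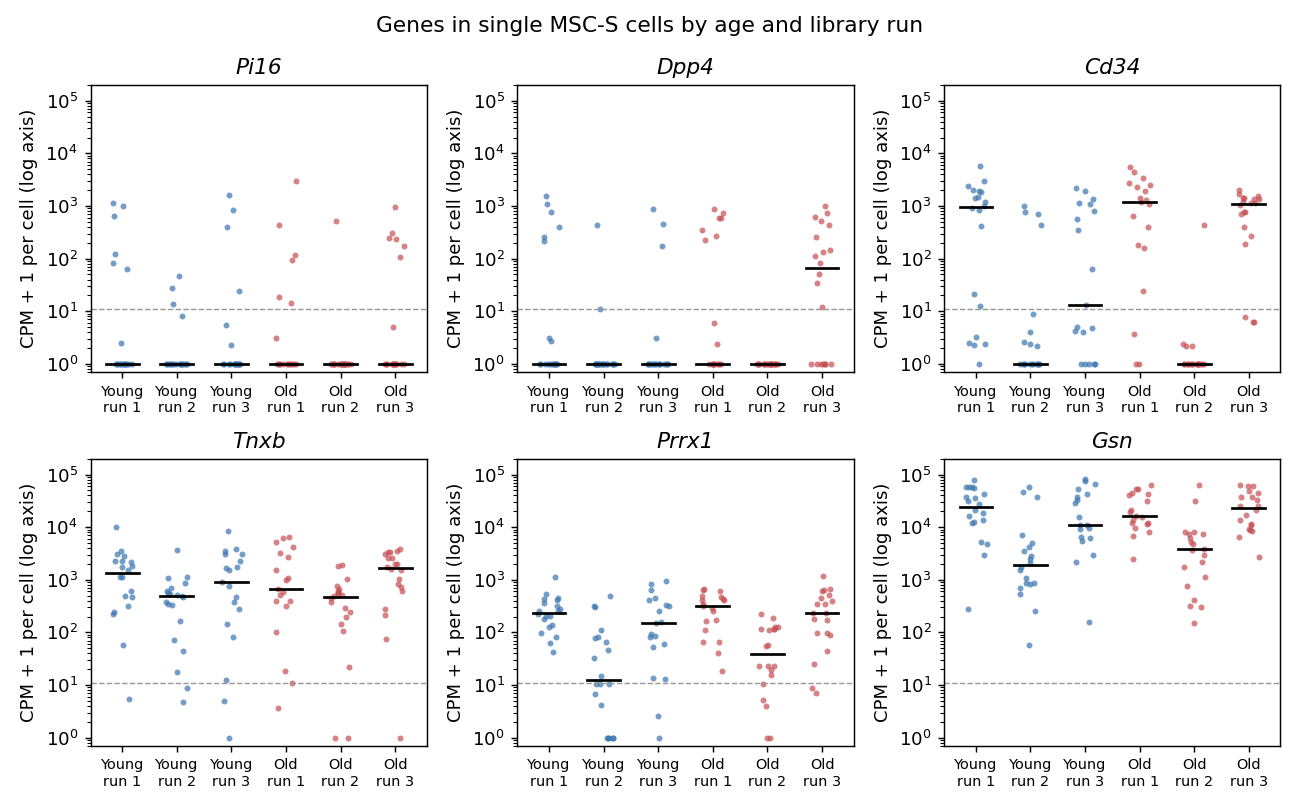
CPM + 1 (log axis) of 6 genes in single MSC-S, by age and library run on the horizontal axis: each point is 1 cell, black bars are medians and the dashed line marks 10 CPM. In run 2, 4 of 20 young and 1 of 20 old cells carried Cd34, against 15 of 20 and 10 of 19 young and 16 of 19 and 17 of 20 old cells in runs 1 and 3, while 18 of 20 cells of run 2 carried Tnxb at each age.

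By run, the same low level in run 2 was seen for surface, secreted, matrix and actin genes. Cd34 stood at 1186, 102 and 555 CPM in the young runs 1, 2 and 3 and at 1465, 25.7 and 915 CPM in the old ones. Dpp4 was at 215, 25.5 and 79.7 CPM in the young runs and at 231, 0 and 208 CPM in the old ones, so 0 of 20 old cells of run 2 carried it. Pi16 was at 135, 5.63 and 197 CPM and at 203, 30.2 and 117 CPM. Tnxb was at 1946, 693 and 1752.5 CPM and at 1978, 558 and 1902 CPM. Gsn was at 28108, 10106.5 and 29283 CPM in the young runs and at 27215, 7986.5 and 28047 CPM in the old ones.

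The study sorted the mesenchymal cells into 16 clusters, M1 to M16. They were built from the expression values of these same cells, and Dpp4, Cd34, Clec3b, Mfap5, Tnxb and Gsn were among the guide genes that define them, so levels by cluster only describe where the genes sat. Dpp4 was carried by 14 of 15 cells of M7 (573 CPM), 10 of 10 of M9 (365 CPM) and 6 of 27 of M12 (46.3 CPM), and by 0 cells of M6 and M8. Pi16, which was not a guide gene, spread over more clusters, at 372 CPM in M7 (8 of 15 cells), 369 CPM in M6 (4 of 5), 199 CPM in M9 (5 of 10) and 109 CPM in M8 (3 of 7). These levels rested in large part on single cells, which gave 46.004% of the Pi16 counts in M7, 61.6% in M6, 52.4% in M9 and 80.9% in M8, and without them were 213, 176, 106 and 25.1 CPM. M6 and M8 thus had Pi16 without Dpp4.

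Gsn was highest in M6 at 55939 CPM and M8 at 46616 CPM, and it was at 7866 CPM in M4 and 3336 CPM in M16, which like M6 and M8 had 0 counts of Dpp4. Tnxb was highest in M7 at 3888 CPM and was carried by 35 of 36 cells of M16 (789 CPM), a cluster in which Dpp4 was carried by none. Thy1 was carried by 10 of 15 cells of M7, 7 of 10 of M9 and 12 of 27 of M12, where it was more frequent than Dpp4, and by 1 of 7 cells of M8 and 0 of 5 of M6. Postn was at 3687 CPM in M14 (2 of 4 cells) and 1270 CPM in M15 (2 of 17 cells), with 89.2% and 63.6% of the counts in 1 cell each, and at 524 and 509.8 CPM without that cell. Prrx1 was carried by 72 of 86 cells of M1 (146 CPM) and 36 of 50 of M2, which held no MSC-S, and by 0 of 16 cells of M3.

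**Figure D3:**
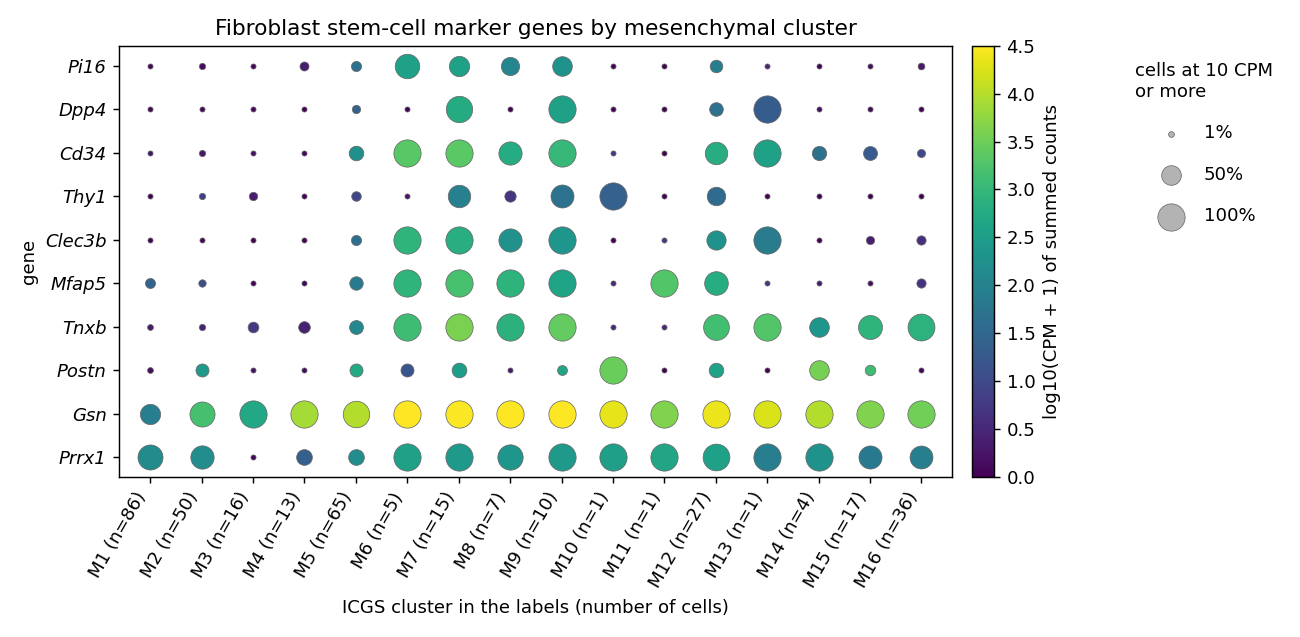
Levels of the 10 genes (vertical axis) in the 16 mesenchymal clusters of the labels (horizontal axis, with cell numbers): color is log10 of CPM + 1 and circle area the percent of cells at 10 CPM or more. Dpp4 stood out in M7 (573 CPM) and M9 (365 CPM), Pi16 also in M6 (369 CPM), and Gsn and Prrx1 in most clusters.

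Age was uneven across these clusters. M9 held 1 MSC-S of old run 1 and 9 of old run 3 and no young MSC-S, so the 10 old Dpp4 cells of M9 came from 9 cells of 1 run and 1 of another. M7 held 6 and 3 cells of the young runs 1 and 3 and 4 and 2 cells of the old ones.

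Across the 118 MSC-S, Cd34, Clec3b and Mfap5 had the highest Spearman correlations among the 10 genes, given here with no p because cells share libraries and depth. The correlation was 0.79 for Cd34 with Mfap5, 0.77 for Cd34 with Clec3b, 0.69 for Clec3b with Mfap5 and 0.67 for Cd34 with Gsn. Without run 2, over 78 cells, these were 0.69, 0.74, 0.63 and 0.60. Dpp4 went with Cd34 at 0.58 and with Tnxb at 0.55. Pi16 with Dpp4 was weaker, at 0.36, and 0.31 without run 2. Postn was close to unrelated to Tnxb at 0.00. Prrx1 with Mfap5 was 0.46 over all cells but 0.12 without run 2, so its size depended on run 2.

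**Figure D4:**
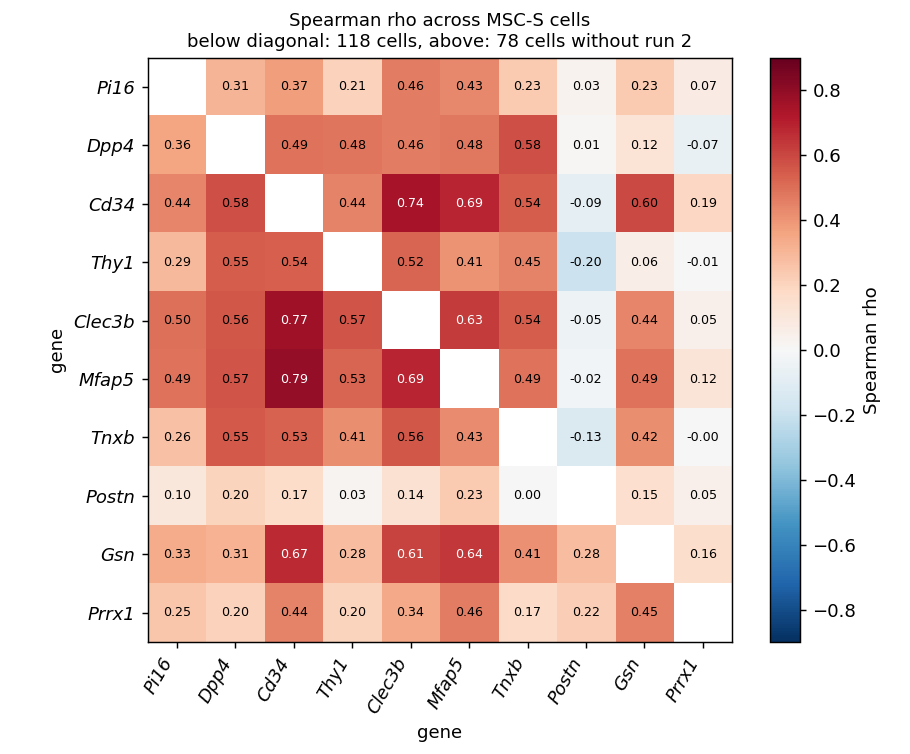
Spearman rho between the 10 genes across MSC-S, with 118 cells below the diagonal and 78 cells without run 2 above it. Cd34, Clec3b and Mfap5 reached 0.69 to 0.79 over all cells, Postn was at 0.00 with Tnxb, and Prrx1 with Mfap5 went from 0.46 to 0.12.

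The genes outside the list most like each member, among 7719 genes carried by at least 20% of the 118 cells, were in part the same. Cadm3, a cell adhesion molecule, was first for Dpp4 (rho 0.670) and Tnxb (0.637), second for Clec3b (0.704), and among the 5 closest to Cd34 (0.720) and Pi16 (0.496). Scara5, a ferritin receptor, was first for Clec3b (0.724) and second for Cd34 (0.724) and Mfap5 (0.711). Cd34 was closest to Col14a1 (0.725), a fibril-associated collagen, and Mfap5 to Fndc1 (0.711). Pi16 was closest to Dbn1 (0.556), which encodes an actin-binding protein, and to Slit3 (0.532).

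Ccl7, a chemokine gene, was first for Thy1 (0.594) and second for Dpp4 (0.629), and Igfbp6 was among the 5 closest to both (0.585 and 0.603). Gsn was closest to Sepp1 (0.703) and Abca8a (0.696). For Prrx1 the closest were Txnip (0.537) and Tgfbi (0.523), which were at 0.281 and 0.379 without run 2. Postn had the lowest values, with the ribosomal protein gene Rpl14 the closest at 0.406.

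Several of these first places depended on run 2. Without it Cadm3 was again the closest to Dpp4 (0.633) and Tnxb (0.643), Scara5 to Clec3b (0.671) and Ccl7 to Thy1 (0.572). For the other 6 genes another gene came first: Adgrd1 for Cd34 (0.695), Nid1 for Mfap5 (0.687), Cd248 for Pi16 (0.565), Ltbp4 for Gsn (0.629), Rbck1 for Postn (0.419) and Snhg8 for Prrx1 (0.392). Col14a1 was then at 0.5996 with Cd34, Fndc1 at 0.564 with Mfap5 and Sepp1 at 0.594 with Gsn.

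The third comparison was between old and young cells of the same gate. In MSC-S the 10 genes were close at both ages apart from Postn. None of 10 was at least 2-fold higher in old cells, where 8.65% of 13381 genes were, and 1 of 10, Postn, was at least 2-fold lower, where 11.1% were. The median log2 ratio of old over young was -0.03 for the 10 genes and -0.06 for all genes. These shares are near those of all genes, and the list is not set apart by them. Without run 2 the counts were again 0 and 1 of 10, beside 13.1% and 13.3% of all genes.

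Postn was at 449 CPM in young and 175 CPM in old MSC-S, a log2 ratio of -1.35, carried by 10 and 5 cells. A single cell gave 51.2% of the young counts and another 54.4% of the old ones, and without those cells the levels were 223 and 81.5 CPM. By run, Postn was at 512, 58.8 and 806 CPM in young and 157, 111 and 247 CPM in old cells, so old run 2 was above young run 2. Without run 2 the levels were 649 and 211 CPM.

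Dpp4 had the largest difference in carrying cells, 11 of 59 young against 20 of 59 old, with intervals that overlap. Its level was 109 CPM in young and 138 CPM in old cells, a log2 ratio of 0.34. Without run 2 it was 152 CPM in young cells (9 of 39 cells) and 217 CPM in old cells (20 of 39 cells). Runs 1 were alike, at 215 and 231 CPM, whereas runs 3 were at 79.7 and 208 CPM, with 3 of 19 young and 13 of 20 old cells carrying it. The difference between ages lay in runs 3. Each run of consecutive library numbers held cells of 1 age, and age and mouse cannot be told apart.

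Pi16 was carried by 13 of 59 cells at each age and had a log2 ratio of -0.04. Cd34 (0.23), Thy1 (0.49), Prrx1 (0.14), Clec3b (-0.28), Mfap5 (-0.26), Tnxb (-0.03) and Gsn (-0.12) all lay within 2-fold. Without run 2, Cd34 was at 892 CPM in young and 1132 CPM in old cells, carried by 25 and 33 of 39 cells, Pi16 at 164 and 151 CPM, Mfap5 at 699 and 666 CPM, Tnxb at 1856 and 1932 CPM, and Gsn at 28656 and 27719 CPM. Thy1 was then at 32.1 and 47.4 CPM, Clec3b at 336 and 281 CPM and Prrx1 at 266 and 313 CPM. With run 2 included, tendon markers were lower in old MSC-S, at 2664 CPM against 5761 CPM. Of 7 genes, 5 were past 2-fold lower, and 4 without run 2. By 2-fold, 6 of 8 chondrocyte markers were also lower (without run 2, 5 of 7 lower and 1 higher). So were 4 of 7 osteoblast markers (2 of 6 without run 2) and 3 of 3 endothelial markers (3 of 3). The part of these lists in the Postn value was not tested.

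In MSC-L only 4 of the 10 genes passed the filter, Prrx1, Gsn, Postn and Mfap5. Prrx1 was at 164 CPM in young (45 of 53 cells) and 163 CPM in old cells (45 of 58). Its runs 1, 2 and 3 were at 151, 136 and 194 CPM in young and at 77.6, 204 and 218 CPM in old cells, so the runs went both ways behind nearly equal totals. Of the 4, Mfap5 was past 2-fold higher, beside 13.9% of all genes, and Postn and Gsn were past 2-fold lower, beside 11.5%. Markers of other cells differed as well. Hematopoietic markers summed to 37.9 CPM in young MSC-L, with Tyrobp, Cd52 and S100a8 at 0, and to 130.4 CPM in old MSC-L, with Hbb-bs the highest and 5 of 7 genes past 2-fold higher, and no cell carried 7 or more of the list. Pericyte and smooth muscle markers were at 761 and 591 CPM (Notch3 highest, 3 of 7 genes lower) and chondrocyte markers at 131 and 74.8 CPM (Comp highest, 2 of 4 genes lower). Their part in the values of MSC-L was not tested. Mfap5 stood at 1.58 CPM in young (2 of 53 cells) and 64.6 CPM in old cells (7 of 58 cells, 12.1%, 4.99% to 23.3%). The highest old cell gave 45.5% of the counts and the level without it was 35.9 CPM. The old runs 1, 2 and 3 had 126, 28.04 and 35.6 CPM and the young runs 3.78, 0 and 0.567 CPM, so each old run lay above each young one. In old run 2 only 2 of 18 cells carried Mfap5, with 202 counts in all. A single cell of that run, at 560 CPM, held 97.4% of the 193 counts of cluster M2. The order by run thus depends on single cells.

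The lower Gsn of old MSC-L rested on 1 young cell with 72.5% of the counts: 536 against 119.5 CPM with that cell and 152 against 96.7 CPM without the highest cell of each age. Its cell medians were 17.2 CPM in young and 35.7 CPM in old cells, the opposite order. Postn was at 65.5 CPM in 3 young cells and 30.3 CPM in 6 old cells. In runs 1 both genes had the opposite order, with Gsn at 43.3 CPM in young and 196 CPM in old cells and Postn at 0 and 32.9 CPM. The other 6 genes had few counts at both ages, at most 26 (Cd34 in old cells), apart from the 108 counts of Thy1 in 1 young cell, and no difference was detectable in Pi16, Dpp4, Cd34, Clec3b and Tnxb at this depth.

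Among OPr, 6 genes passed the filter, and the old cells were a mixed group. Of 29 old OPr, 8 carried at least 7 of 15 hematopoietic markers, and no young OPr did. The list summed to 10104 CPM in old OPr, with S100a9 the highest at 4041 CPM, against 24.2 CPM in young ones, and Ptprc, whose product CD45 was gated out, was at 384 CPM, carried by 8 cells, with Cd79a at 0. Chondrocyte markers were lower in old OPr, at 2852 CPM against 44647 CPM, with Col2a1 the highest in the young at 23589 CPM, while MSC-L markers were higher, at 26477 CPM against 6607 CPM. Tendon markers were lower in old OPr, at 1155 CPM against 8999 CPM (Fmod highest at both ages), with 5 of 5 genes past 2-fold and a median log2 ratio of -4.00, as were Schwann cell markers, at 116 CPM against 701 CPM (Mbp highest in the young), with 5 of 5 genes and a median of -4.48. Pericyte and smooth muscle markers were higher, at 2575 CPM against 124 CPM (Acta2 highest in the old), with 6 of 8 genes and a median of 4.03. The part of these cell mixtures in the values for OPr was not tested beyond leaving out the cells named.

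Pi16 and Cd34 were past 2-fold higher in old OPr, 2 of 6 genes, beside 25.6% of all genes, and Postn and Prrx1 past 2-fold lower, 2 of 6, beside 19.6%. Pi16 was at 0.511 CPM in young and 25.96 CPM in old OPr, in 3 of 29 cells. Without the 8 cells with hematopoietic markers, Pi16 had 0 counts in the other 21 old cells, which allows up to 14.3% of cells. The 643 Dpp4 counts of old OPr, all in 1 cell, were also among those 8 cells. Cd34 was at 3.75 CPM in young and 19.1 CPM in old OPr, where 1 cell gave 98.3% of the counts, and at 0.342 CPM without it, below the 0.386 CPM of young OPr without their highest cell.

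Postn was at 698 CPM in young OPr (7 of 44 cells) and 53.6 CPM in old OPr (3 of 29 cells). The young runs 1, 2 and 3 had 773, 157 and 1389 CPM and the old ones 106, 22.3 and 0 CPM, so each young run lay above each old one. That order rests on single cells. In young run 1 a single cell gave 9765 of 9882 counts, and in young run 3 only 1 of 12 cells carried Postn. Without the highest cell of each age the levels were 379 and 11.5 CPM, and the young value still holds the carrying cell of run 3. Prrx1 was at 78.3 CPM in young and 27.1 CPM in old OPr, carried by 10 of 44 and 6 of 29 cells. Its young runs had 121, 0.199 and 115 CPM and its old ones 5.92, 49.9 and 3.05 CPM, so young run 2 lay below every old run. Outside clusters M1 and M2 Prrx1 was at 58.1 and 5.35 CPM. The old values of Postn and Prrx1 include the 8 old OPr with hematopoietic markers, and no value without those cells is given.

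In mOPr 8 genes passed the filter. Of these, Cd34 was past 2-fold higher in old cells, beside 24.7% of all genes, and 5 were past 2-fold lower (Pi16, Clec3b, Mfap5, Postn and Tnxb), beside 19.8%. Tnxb was at 957 CPM in young (12 of 26 cells) and 85.4 CPM in old mOPr (5 of 26 cells), a log2 ratio of -3.47. The young runs had 1171, 1100 and 597 CPM and the old ones 154 and 42.9 CPM. Cd34 was at 38.05 CPM in 5 young cells and 215 CPM in 7 old cells, with 53.4, 0 and 35.7 CPM in the young runs and 353 and 130 CPM in the old ones. In both genes the runs of the 2 ages did not overlap, although young run 2 held 3 cells. Postn was at 713 CPM in young and 297 CPM in old mOPr, but its runs overlapped, with 686, 2244 and 7.79 CPM in the young and 0.419 and 481 CPM in the old.

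Pi16, Clec3b and Mfap5 overlapped by run as well. Pi16 was at 93.7, 0 and 11.9 CPM in the young and 56.2 and 0 CPM in the old runs, Clec3b at 71.4, 0 and 0 CPM and at 23.1 and 8.68 CPM, and Mfap5 at 196, 0 and 11.9 CPM and at 60.2 and 17.9 CPM. Without the highest cell of each age Clec3b had the opposite order, with a log2 ratio of 0.67, and Pi16 and Mfap5 were at -0.12 and -0.75.

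Markers of other cells differed between the ages of mOPr. Tendon markers were lower in old cells, as Tnxb was, at 12985 CPM in young (Fmod highest) and 267 CPM in old mOPr, with 6 of 7 genes past 2-fold and a median log2 ratio of -3.49. Chondrocyte markers were also lower, at 10355 and 659 CPM (Comp highest), with 8 of 8 genes and a median of -4.99. MSC-L markers ran the other way, at 1245 and 23448 CPM (Cxcl12 highest), with 7 of 8 genes higher and a median of 3.10, as did pericyte and smooth muscle markers, at 199 and 2422 CPM (Acta2 highest), with 6 of 7 genes and a median of 3.58. The part of these lists in the values for mOPr was not tested. Outside clusters M1 and M2, which left 24 young and 12 old mOPr and was chosen after seeing the data, Tnxb was at 1006 and 176 CPM and Cd34 at 40.0 and 453 CPM (7 of 12 old cells). There 2 of 8 genes, Cd34 and Gsn, were past 2-fold higher, beside 21.8% of all genes, and 2 of 8, Postn and Tnxb, lower, beside 32.6%. Gsn was at 7636 CPM in young and 17767 CPM in old cells. Pi16, Clec3b and Mfap5 were past 2-fold lower in the full groups, but there they were at 51.4 and 44.8, 35.9 and 29.6, and 103 and 68.8 CPM. For Pi16, Clec3b and Mfap5, 1 young cell held 91.2%, 91.0% and 60.2% of the counts.

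In the endothelial cells, the comparison from outside the mesenchyme, Cd34 was high in AEC. Pi16 was carried by a minority of AEC and Dpp4 by a minority of SEC. Cd34, a known marker of arterial and capillary lining, stood at 877 CPM in young AEC (70 of 84 cells) and 743 CPM in old AEC (63 of 82 cells), the latter within counting error of old MSC-S. In SEC Cd34 was at 49.4 CPM in young cells (5 of 70) and 270.1 CPM in old cells (21 of 71). SEC of both ages held 6680 Cd34 counts, but E7, the endothelial cluster that the paper ties to sinusoidal identity, held 343. Most Cd34 counts of SEC thus came from cells outside E7, and the values by age were not split by cluster. Pi16 was at 16.5 CPM in young AEC (9 of 84 cells) and 64.1 CPM in old AEC (14 of 82 cells). A single old cell gave 45.7% of those counts, and without it the level was 35.5 CPM. Dpp4 was in SEC instead, at 10.6 CPM (8 of 70 young cells) and 17.2 CPM (9 of 71 old cells), while 0 of 84 young and 0 of 82 old AEC carried it, which allows up to 3.57% and 3.66%.

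By endothelial cluster, Pi16 was at 96.96 CPM in E3 (18 of 60 cells, 30%, 18.8% to 43.2%) and 12.8 CPM in E4 (6 of 59 cells). In MSC-S of both ages it was at 108 CPM and carried by 22.03% of cells, so Pi16 was not particular to MSC-S. Dpp4 was at 16.1 CPM in E7 (14 of 105 cells). Cd34 was at 634 CPM in E3, 834 CPM in E4, 1458 CPM in E5 and 924 CPM in E6, and at 10.9 CPM in E7. Clec3b had 4 and 2 counts in young and old SEC. Among AEC, Postn in the old was a single cell with 99.9% of the counts. Pi16 was carried by 2 of 105 cells of E7, and Dpp4 by no cell of E3 or E4.

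Around the 10 genes, 4 wider lists were read in the same comparisons, with the medians of all genes at -0.32 in young and -0.37 in old cells for the log2 ratio of MSC-S over MSC-L. Of all genes, 16.8% were at least 2-fold higher and 28.8% lower in young MSC-S, and 16.2% and 32.8% in old MSC-S. A list gene near 0 in 1 of the 2 populations passed the filter only through the other and had to differ. The counts and medians of these lists are therefore a description, as those of the 10 genes are. Of 24 other adventitial fibroblast genes, 20 were at least 2-fold higher in young MSC-S than in young MSC-L and 1 was lower, with a median log2 ratio of 4.61, although 14 of the 24 were guide genes of the clusters. The IGF-binding protein gene Igfbp6 was at 2097 against 1.67 CPM, the hyaluronan synthase gene Has1 at 2340.5 against 2.02 CPM and the dermatopontin gene Dpt at 579 against 0.219 CPM. Limch1 was lower, at 81.3 against 362 CPM, and the fibrillin gene Fbn1 was nearly the same, at 1252 against 1003 CPM. In old cells 20 of 23 were higher and 1 lower, with a median of 5.35. Without run 2 the numbers higher and lower were the same at each age.

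Of 12 periosteal and skeletal progenitor genes, 7 were higher in MSC-S than in MSC-L and 1 was lower at each age, with medians of 1.97 in young and 1.43 in old cells. Angptl7 was at 1140.5 against 6.05 CPM in young cells, the podoplanin gene Pdpn at 72.5 against 0.175 CPM, and Cd200 was lower, at 34.9 against 113 CPM. Gli1, a target and effector of hedgehog signaling, was at 11.2 against 12.6 CPM. Without run 2, 7 of 12 were higher and 2 lower in young cells and 6 of 11 higher and 1 lower in old cells.

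Family relatives of the 10 genes were mixed. Of 28 relatives, 22 passed the filter in young cells, with 9 higher, 2 lower and a median of 0.32, beside 16.8% of all genes higher and 28.8% lower. The tenascin family was split: Tnxb and Tnn (109.8 against 0.0438 CPM) were high in MSC-S, but Tnc was at 281 CPM in MSC-S and 3696 CPM in MSC-L. The tetranectin relative Clec3a was at 137 against 0.614 CPM, and the gelsolin relative Capg at 714 against 7.63 CPM. Of the relatives of Mfap5, Mfap2 was at 67.7 against 132 CPM and Mfap3 at 32.96 against 107 CPM. In old cells 24 passed, with 12 higher, 6 lower and a median of 0.81. Without run 2, 9 of 22 were higher and 3 lower in young cells and 11 of 24 higher and 5 lower in old cells.

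Other genes of microfibrils and elastic fibers went both ways. Of 15 such genes, 14 passed the filter in young cells, 3 were higher in MSC-S and 7 were lower, with a median of -1.07. Fbln2 was at 611 against 17.8 CPM and elastin, Eln, at 27.98 against 0.219 CPM, whereas Fbln5 was at 285 against 2173 CPM, Ltbp2 at 119.98 against 565 CPM and Efemp2 at 115 against 468 CPM. In old cells 3 of 15 were higher and 4 lower, with a median of -0.55. Without run 2, 3 of 14 were higher and 6 lower in young cells and 4 of 15 higher and 5 lower in old cells.

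With age, the medians of these lists in MSC-S were near 0, with genes past 2-fold in both directions, beside 8.65% of all genes higher and 11.1% lower. Of 24 adventitial genes 3 were at least 2-fold higher in old cells (Penk, Smpd3 and Procr) and 2 lower (Uchl1 and Col15a1), with a median log2 ratio of -0.14. Penk, the proenkephalin gene, was at 80.3 CPM in young and 334 CPM in old cells. Of 12 periosteal genes 2 were higher (Gli1 and Pdpn) and 4 lower, with a median of -0.13. Angptl7 was at 1140.5 CPM in young and 157 CPM in old cells, but its runs 1, 2 and 3 overlapped, with 1138, 49.2 and 2345 CPM in the young and 587, 0.706 and 22.1 CPM in the old. Single cells gave 86.1% of its counts in young run 1, 49.1% in young run 3 and 98.2% in old run 3. Without the highest cell of each age Angptl7 was at 799 and 85.3 CPM. Of 25 relatives 4 were higher and 6 lower, with a median of -0.19. Fap, the closest relative of Dpp4 and a fibroblast surface protease, was at 212 CPM in young and 1147 CPM in old cells. Clec3a was at 137 CPM in young cells and 0 counts in old ones. Of 15 microfibril genes 1, Ltbp1, was higher and 1, Mfap4, lower, with a median of -0.07. Without run 2, 2 adventitial genes were higher and 1 lower, 2 periosteal genes higher and 4 lower, 4 relatives higher and 4 lower, and 3 microfibril genes higher and 2 lower, beside 13.1% and 13.3% of all genes. Without run 2 Fap was at 219.6 CPM in young and 445 CPM in old cells. Its runs were at 178, 196 and 267 CPM in the young and 552, 2387.5 and 375 CPM in the old, so each old run lay above each young one. A single cell gave 47.8% of the Fap counts of old run 3. Without the highest cell of each run, old run 3 was at 206 CPM, below young run 3 at 222 CPM. Clec3a lay mostly in young run 3, with 4.597, 63.6 and 369 CPM in the young runs, and 38.4% of its counts came from 1 cell. Penk was at 111 and 468 CPM without run 2.

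Promoter sequences are shown for Pi16, Dpp4 and Cd34, the genes for which the universal fibroblast of other organs is known. In MSC-S they overlapped in part, since 14 of 118 cells carried Pi16 and Dpp4 together, and all 14 of these carried Cd34. The table of RefSeq promoters used here (GRCm38.p6) held 10 entries for 7 of the 10 genes, each 300 bases around the transcript start, and no entry for Thy1, Clec3b and Mfap5. Capitals mark matches on either strand to TATAAA, present in 13.6% of 32851 promoters of the same length, CCAAT (37.4%), GGGCGG (35.7%), TGACTCA (5.20%) or CAGCTG (16.3%). The windows are chr17:29318632-29318931 (plus strand) for Pi16, chr2:62412182-62412481 (minus strand) for Dpp4 and chr1:194938571-194938870 (plus strand) for Cd34, each read 5′ to 3′ on the strand of the gene.
Pi16: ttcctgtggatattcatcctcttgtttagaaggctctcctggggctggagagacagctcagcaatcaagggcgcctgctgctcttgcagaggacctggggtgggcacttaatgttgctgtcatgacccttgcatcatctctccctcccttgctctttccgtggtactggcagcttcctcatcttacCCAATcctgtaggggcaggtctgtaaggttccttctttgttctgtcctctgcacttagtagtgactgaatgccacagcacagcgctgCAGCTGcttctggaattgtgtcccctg
Dpp4: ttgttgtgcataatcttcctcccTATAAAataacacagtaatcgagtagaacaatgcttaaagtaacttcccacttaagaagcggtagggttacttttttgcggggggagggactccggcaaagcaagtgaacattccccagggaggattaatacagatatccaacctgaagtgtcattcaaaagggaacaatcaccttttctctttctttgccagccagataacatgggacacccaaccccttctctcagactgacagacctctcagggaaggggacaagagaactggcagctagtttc
Cd34: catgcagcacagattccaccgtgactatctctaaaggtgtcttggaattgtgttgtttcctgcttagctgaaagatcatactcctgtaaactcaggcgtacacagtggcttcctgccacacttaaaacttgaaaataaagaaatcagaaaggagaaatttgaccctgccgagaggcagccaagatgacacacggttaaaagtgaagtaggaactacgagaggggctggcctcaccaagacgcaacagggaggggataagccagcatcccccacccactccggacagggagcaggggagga

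Pi16 had 1 CCAAT and 1 CAGCTG match, Dpp4 1 TATAAA match and Cd34 none. G and C made up 53.3% of the bases for Pi16, 45.3% for Dpp4 and 50% for Cd34, against a median of 52.7% over all promoters, and the windows held 3, 4 and 7 CpG sites, against a median of 7. Of the other entries, Tnxb had 1 TGACTCA match, Prrx1 none, the 2 of Postn 1 CCAAT and 1 TATAAA match, and the 3 of Gsn 3, 1 and 2 GGGCGG matches, 0, 1 and 3 CCAAT matches, and 1, 1 and 0 CAGCTG matches. The 3 printed promoters shared no match, and letters present or absent in these windows say nothing of which factor acts there.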

How the data were processed

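Reads of single cells were aligned by the authors with GSNAP to GRCm38.p4 and counted per gene with HTSeq, as the submitters' processing notes name them. The deposited counts were used as raw counts, and strand was not used in counting. Of 46078 entries, 270 were repeated, 45771 were nuclear genes and 37 mitochondrial genes. Counts were summed over the cells of a group and divided by nuclear counts, with 95% intervals. A cell carried a gene at 10 CPM. Ratios used a pseudocount of 1 CPM, a filter of 100 counts in 5 cells and a 2-fold limit, with a floor of 3 counts against groups at 0. No test was possible, since each sample was 1 cell and mice were not named. Members and lists (adventitial, periosteal, relatives, microfibril and the marker lists) were chosen with earlier results of these data known. Named genes were all 10 members, the 3 largest and 3 smallest log2 ratios of each list among genes passing the filter, and the 5 genes with the highest Spearman rho to each member; others were chosen after their values were seen. Alternatives were other scalings, pseudocounts, filters, limits, depth, single library-number ranges, the clustering's identity groups and leaving out the highest cell. Leaving out run 2 of MSC-S, or cells of M1 and M2, was chosen after seeing the data. Gene lengths were from GENCODE M21. Spike-ins were not analysed and doublets were not called. Tables were handled with pandas 2.3.3 in Python 3.11.15. Intervals and correlations came from scipy 1.17.1, arrays from numpy 2.4.6 and plots from matplotlib 3.10.9. The pooled ratio and the filter were tested on simulated counts for young MSC-S over young MSC-L. The intervals, shares and correlations were not tested in this way.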

Additional observations from a re-analysis of the deposited data

How the results depend on the processing

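Over all alternatives, 163 counts or shares stayed and 21 moved, where a count of genes stays within 1.5 times its value and a share or log2 ratio within its own 95% interval of counting error. Of the log2 ratios of single genes 449 stayed, 606 moved and 9 reversed; the cause was not tested. The number of genes at least 2-fold higher in old than in young MSC-S was 0, and 1 (Dpp4) in library-number range 2 alone. In MSC-L the log2 ratio of old over young was 5.08 for Postn and 2.15 for Gsn in range 1 alone, and 0.50 and 0.24 with identity groups of the clustering in place of sorted cells. In OPr it was -0.60 for Pi16 without cells with hematopoietic markers and -0.05 for Cd34 without the highest cell. In mOPr it was 3.28 for Clec3b and 1.07 for Mfap5 in range 2 alone, and 0.67 for Clec3b without the highest cell. The identity groups could not be used for mOPr.

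Size factors shifted the median log2 ratio of all genes by -0.13 and -0.25 for MSC-S over MSC-L in young and old cells, by -0.12 for MSC-S over OPr in young cells and by 0.11 for old over young MSC-L. The mean of CPM over cells shifted it by 0.12 for MSC-S over OPr at each age. No paired analysis was possible because no label named the mouse, so the spread between mice is unknown and age and mouse cannot be told apart. Each run of library numbers held cells of 1 age. Without molecular identifiers intervals cover counting error alone, and a level carried by 1 or 2 cells says little of the population.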

Other observations

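Run 2 of MSC-S differed from runs 1 and 3 in genes outside the 10 as well, chosen here after their values were seen and given as values only. Aldh1a2, which makes retinoic acid, was at 42.1 CPM in young and 36.9 CPM in old run 2 and at 0 in the other runs. The collagen gene Col22a1 was at 1023 and 745 CPM in run 2, against 147 and 24.8 CPM in the young runs 1 and 3 and 82.1 and 107 CPM in the old ones. In the other direction, the collagen gene Col14a1 was at 40.6 and 13.8 CPM in run 2, against 993 and 693 CPM in the young runs 1 and 3 and 705 and 670.2 CPM in the old ones. The lipid transporter gene Abca6 was at 1.96 and 1.27 CPM, against 92.7 and 96.6 CPM in the young and 129.6 and 76.4 CPM in the old runs.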
